A study of Rattus norvegicus with 6 samples.

Results

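The neuropeptide genes Nts, Cartpt, Sst, Npy, Cck, Vip, Crh and Trh, none of them of the opioid families, were followed through nuclei of the rat nucleus accumbens. They were taken by gene symbol, and all 8 of 8 were found among the 25629 genes of the count tables. The nucleus accumbens is the ventral part of the striatum. The measurement was droplet-based single-nucleus RNA sequencing with a 3' chemistry, in which each captured RNA molecule is counted once by its unique molecular identifier (UMI).

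Each of the 6 libraries pooled tissue from male and female Sprague-Dawley rats of postnatal day 90 to 120. All 6 came from rats that had self-administered heroin, on a fixed ratio of 1 response per infusion for 7 days, a fixed ratio of 3 for 4 days, a progressive ratio test on day 12 and a fixed ratio of 3 again on days 13 and 14. Of the libraries, 3, replicates 1 to 3, came from rats injected with saline after the last session, and 3, replicates 4 to 6, from rats injected with naloxone, an antagonist of opioid receptors, with tissue taken 1 hour later. The saline group is therefore also a heroin group. The comparison asks what naloxone changed in heroin-trained animals. A replicate is a library of pooled rats, so an SD or a p-value refers to the spread between such pools.

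Neuropeptides are made as precursor proteins, cut by convertases such as Pcsk1 and Pcsk2, trimmed by Cpe, amidated by Pam and stored with granins in dense-core vesicles. Most act on G-protein-coupled receptors and at a slower pace than fast transmitters. In the striatum neurotensin (Nts) and CART peptide (Cartpt) are known from spiny projection neurons, in which neurotensin is known to respond to dopaminergic drugs. Somatostatin (Sst) and neuropeptide Y (Npy) are the classical peptides of the interneurons that carry nitric oxide synthase (Nos1). Cholecystokinin (Cck), vasoactive intestinal peptide (Vip), corticotropin-releasing hormone (Crh) and thyrotropin-releasing hormone (Trh) are better known from cortex, hypothalamus and small interneuron populations.

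The 250 bases before the start of Nts and of Cartpt are printed because spiny nuclei rich in either gene had a higher sum of immediate early genes, as described further on. Capitals mark 1 match in each window, TGAGTCA (the AP-1 site, bound by Fos and Jun family proteins) in Nts and TGACGTCA (the cAMP response element) in Cartpt. Both strands were searched, and the 2 motifs do not overlap there. The sequences are from RefSeq on GRCr8, read 5′ to 3′ on the gene's strand, which is the minus strand for both, at chr7:39460889-39461138 for Nts and chr2:32991236-32991485 for Cartpt.
Nts: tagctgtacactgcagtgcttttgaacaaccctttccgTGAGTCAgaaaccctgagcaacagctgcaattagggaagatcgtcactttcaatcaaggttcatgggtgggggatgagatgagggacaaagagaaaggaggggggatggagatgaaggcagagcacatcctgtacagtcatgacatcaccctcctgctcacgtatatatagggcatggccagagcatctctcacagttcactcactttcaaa
Cartpt: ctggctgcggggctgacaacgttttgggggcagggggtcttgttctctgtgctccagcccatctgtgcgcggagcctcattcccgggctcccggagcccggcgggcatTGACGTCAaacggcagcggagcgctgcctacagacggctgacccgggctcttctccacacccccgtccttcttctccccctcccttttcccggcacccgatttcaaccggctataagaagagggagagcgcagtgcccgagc
The Nts match lies 212 to 206 bases before the start, and the same letters occur in 4.05% of the 33469 promoter windows of that length (1354 windows). The Cartpt match lies 142 to 135 bases before the start, and its letters occur in 1.59% of windows (531 windows). Windows were at hand for 6 of the members, and those of Sst, Npy, Vip and Trh held neither motif in these exact letters. Near matches, such as tgacgtct in the Vip window, and sites outside the windows were not counted. The absence of an exact match therefore does not show that a gene lacks such an element. A match is a description of the letters only.

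The files held 64260 barcodes, of which 58960 nuclei were used, 7647 to 13676 per library. Libraries held 55739350 to 76272798 UMIs, with a median of 4220.5 to 6453 UMIs per nucleus. Any pair of libraries shared 19 to 45 barcode strings. Nuclei fell into 48 clusters, of which 18 could be named from marker genes and 15 stayed unnamed, and those are called here by a leading gene. Spiny neurons, the main neurons of this tissue, were present as 7645 Drd1 spiny-like and 5200 Drd2 spiny-like nuclei, next to 493 Nos1 interneuron-like, 4679 astrocyte-like and 11573 oligodendrocyte-like nuclei. The 8 genes were kept out of the clustering and the naming, so their levels had no part in drawing the groups.

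All 8 peptides gave sparse counts. Nts gave 7320 UMIs in 4173 nuclei, Cartpt 4902 in 4149, Sst 2391 in 1861 and Npy 2105 in 1504. The other four were lower, with 514 Trh UMIs in 429 nuclei, 478 Crh UMIs in 366, 307 Cck UMIs in 285 and 111 Vip UMIs in 71. Most detecting nuclei held a single UMI: only 5.61% of nuclei with Cck and 23.3% of nuclei with Nts, the extremes of the 8, held 2 or more. Levels are given as CPM (UMIs of the gene scaled to a fixed total over all UMIs of a cell group, mean ± SD over the 6 libraries), and as UMIs per 100 nuclei where depth matters, since an oligodendrocyte-like nucleus had a median of 1617 UMIs and a Drd2 spiny-like nucleus 8361.5. The counts come from nuclei, so they are nuclear RNA, and they say nothing of peptide.

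**Figure D1:**
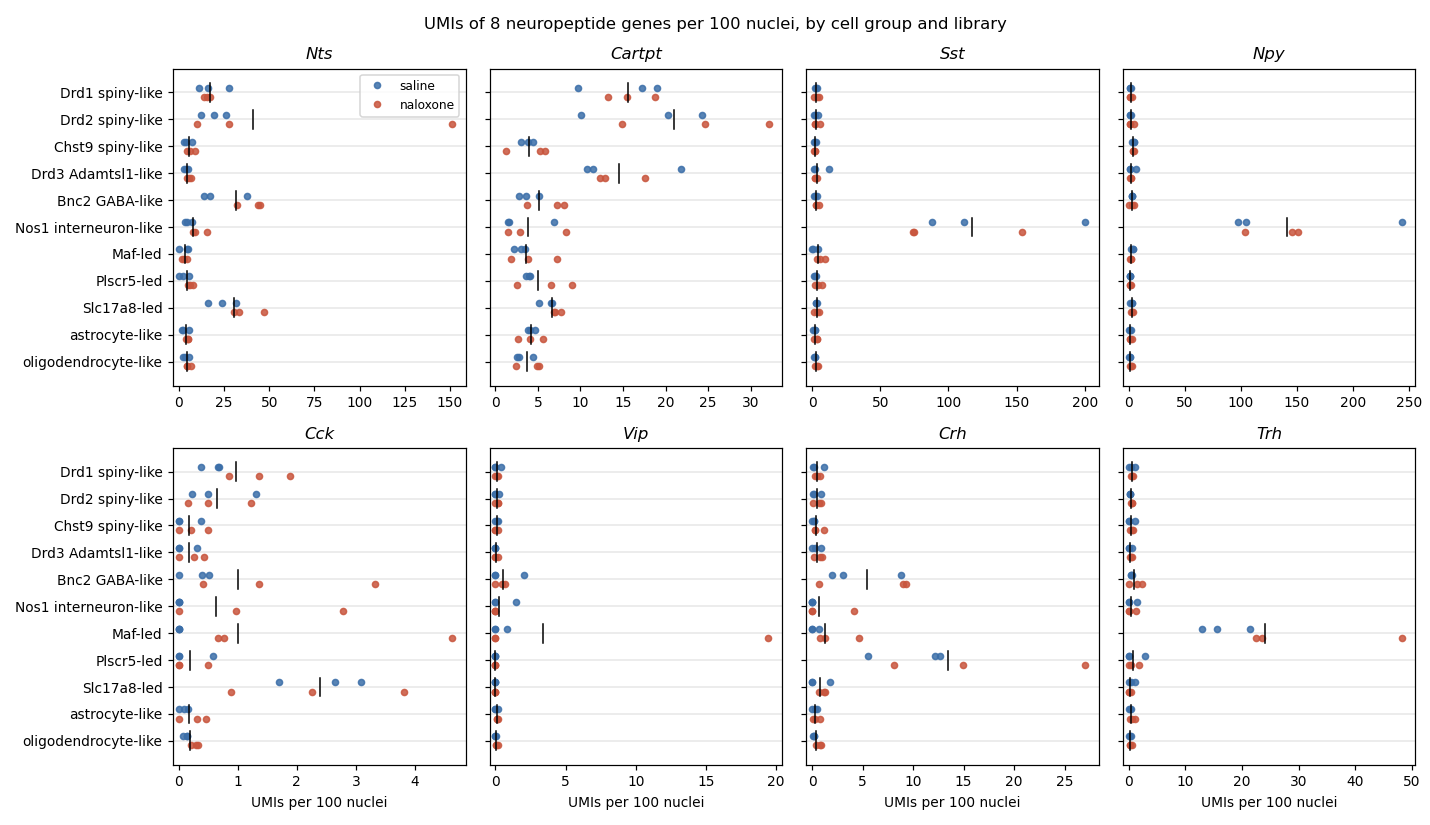
UMIs per 100 nuclei (horizontal axes, 1 panel per gene, each with its own scale starting at 0) in 11 cell groups, 1 point per library, saline in blue and naloxone in red, with a black bar at the mean of the 6 libraries. Sst and Npy stand out in Nos1 interneuron-like nuclei, Trh in Maf-led nuclei and Crh in Plscr5-led nuclei, whereas Nts and Cartpt are spread over spiny and other groups.

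Sst and Npy had their highest level in the same 493 nuclei. In Nos1 interneuron-like nuclei Sst stood at 161, 149 and 226 CPM in the saline libraries and at 111, 121 and 142 CPM in the naloxone libraries, a mean of 152 ± 40.8 (SD, n = 6). The next ranked group, oligodendrocyte-like nuclei, had 14.3 ± 5.0 CPM. The difference of 138 ± 44.0 CPM was present in 6 of 6 libraries, with an exact two-sided sign-flip permutation p of 0.03125 and an adjusted p of 0.0625 over the 8 genes. No sign flip over 6 libraries can give a smaller raw value. In this and the other level tests the groups compared were picked by their means in these same libraries, and the p-value does not allow for that choice. These nuclei, 493 of 58960, held 22.9% of all Sst UMIs. With classes set by a marker gate on single nuclei, which put 3154 nuclei in the Nos1 class, the difference was 8.83 ± 12.3 CPM in 5 of 6 libraries (exact permutation p = 0.15625).

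Npy in Nos1 interneuron-like nuclei stood at 152, 166 and 275 CPM with saline and at 154, 239 and 140 CPM with naloxone, a mean of 188 ± 55.8. The next ranked group by level was mural-like nuclei, whose 13.9 CPM rested on 5 UMIs. The difference of 174 ± 49.2 CPM was again present in 6 of 6 libraries (exact sign-flip permutation p = 0.03125, adjusted p = 0.0625). With the marker gate it was 23.0 ± 10.2 CPM, also in 6 of 6 (exact permutation p = 0.03125). Below it the order of groups was not resolved: the Col6a2-led group had 13.9 ± 6.7 CPM, the Slc17a6-led group, led by a vesicular glutamate transporter gene, 9.6 ± 6.3 CPM and oligodendrocyte-like nuclei 9.0 ± 3.7 CPM. Slc17a6-led nuclei included 4 with 5 or more Npy UMIs.

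Within the Nos1 interneuron-like group 262 nuclei had an Sst UMI, 253 an Npy UMI, 154 both and 132 neither. A UMI of either gene was present in 73.2% of nuclei, and in 63.9% to 89.9% by library. Sst was detected in 60.9% of nuclei with Npy and in 45.0% of nuclei without it. Nuclei with either peptide had a median of 6644 UMIs and nuclei with neither had 5255, so missing counts were more common in shallower nuclei.

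Trh was highest in the Maf-led group, 845 nuclei whose leading genes include Maf, Egfr and Kit. Its level there was 20.6, 20.4 and 23.2 CPM with saline and 32.03, 37.2 and 44.0 CPM with naloxone, a mean of 29.6 ± 9.8. That group held 36.8% of all Trh UMIs and all 3 nuclei with 5 or more of them. Mural-like nuclei came next with 6.13 CPM from 2 UMIs, then the Slc17a6-led group with 2.80 ± 3.6 CPM and oligodendrocyte-like nuclei with 1.83 ± 0.90 CPM, and these 3 could not be ordered. The difference to the next group was 23.5 ± 4.36 CPM in 6 of 6 libraries (exact sign-flip permutation p = 0.03125, adjusted p = 0.0625).

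Crh was highest in the Plscr5-led group, 1063 nuclei with Plscr5, Gpr139, Qrfpr and the transcription factor gene Lhx8 among their leading genes. Libraries ranged from 8.31 to 20.6 CPM, with a mean of 13.9 ± 5.1. Bnc2 GABA-like nuclei followed at 5.98 ± 4.69 CPM, ranging from 0.782 to 12.7 CPM, and the difference of 7.97 ± 2.94 CPM was present in 6 of 6 libraries (exact sign-flip permutation p = 0.03125, adjusted p = 0.0625). The Plscr5-led group held 29.9% of all Crh UMIs and 5 of the 6 nuclei with 5 or more. After nuclei were thinned to 1000 UMIs this order was lost, since the difference was then 0.113 UMIs per 100 nuclei and present in 4 of 6 libraries (exact permutation p = 0.5625).

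Cck and Vip had no group that stood apart across libraries. Among the 27 ranked groups Cck was highest in the Slc17a8-led group, 1541 nuclei named for a vesicular glutamate transporter gene, at 2.73 ± 1.09 CPM from 38 UMIs. The Exph5-led group came next at 2.13 CPM from 3 UMIs, and the difference of 0.603 ± 3.86 CPM held in 4 of 6 libraries (exact sign-flip permutation p = 0.6875). Vip was highest in Maf-led nuclei at 3.11 ± 7.18 CPM, of which 17.8 CPM in naloxone replicate 6 rested on 21 UMIs, 17 of them in a single nucleus, while the other 5 libraries had 0 or 1 UMI. Gbx1-led nuclei followed at 2.16 ± 3.58 CPM, with 9.17 CPM in saline replicate 3 (exact sign-flip permutation p = 1.0 for the difference).

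Cartpt was spread more evenly than any of the other 7 on the measure of UMIs per nucleus in its highest group over oligodendrocyte-like nuclei, 5.54-fold against 12.4-fold to 87.0-fold. By CPM it was highest, among the 27 ranked groups, in Drd3 Adamtsl1-like nuclei, at 29.7, 40.3 and 46.3 CPM with saline and 39.3, 46.7 and 34.2 CPM with naloxone, a mean of 39.4 ± 6.7. Mural-like nuclei came next at 21.7 ± 19.9 CPM from 10 UMIs, and the difference was present in 4 of 6 libraries (exact sign-flip permutation p = 0.1875, adjusted p = 0.30). Without the top 1% of nuclei, per 100 nuclei and after thinning to 1000 UMIs it was present in 6 of 6 (exact permutation p = 0.03125 each, adjusted p = 0.05, 0.05 and 0.0833). Drd2-led Drd2 spiny-like nuclei at 21.7 ± 5.4, oligodendrocyte-like at 20.7 ± 8.0 and Ebf1-led Drd1 spiny-like at 18.7 ± 3.4 CPM did not differ beyond their spread. Per nucleus the order changed: Drd2-led nuclei held 19.98 Cartpt UMIs per 100 nuclei, the Ebf1-led Drd1 group 17.4, Drd3 Adamtsl1-like nuclei 14.5 and oligodendrocyte-like nuclei 3.60.

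Nts had the least settled order. The Itga11-led part of the Drd2 spiny-like nuclei, 415 nuclei, had the highest mean at 117 ± 204 CPM, but its libraries ran from 6.38 to 530.2 CPM. Slc17a8-led nuclei had 35.3 ± 15.4, Bnc2 GABA-like nuclei 34.2 ± 14.995, Exph5-led nuclei 33.8 ± 43.9 and Drd2-led Drd2 spiny-like nuclei 28.5 ± 20.1 CPM. The Itga11-led group exceeded the Slc17a8-led group in 3 of 6 libraries (81.9 ± 207 CPM, exact sign-flip permutation p = 0.625, adjusted p = 0.786), and no neighbours among these 5 differed beyond their spread. Within the Drd1 spiny-like nuclei the Pde5a-led cluster had 20.6 ± 5.5 and the Ebf1-led cluster 8.5 ± 2.0 CPM, with Pde5a-led nuclei higher in 6 of 6 libraries. The lowest level of Nts among ranked groups was in Maf-led nuclei, at 4.6 CPM.

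**Figure D2:**
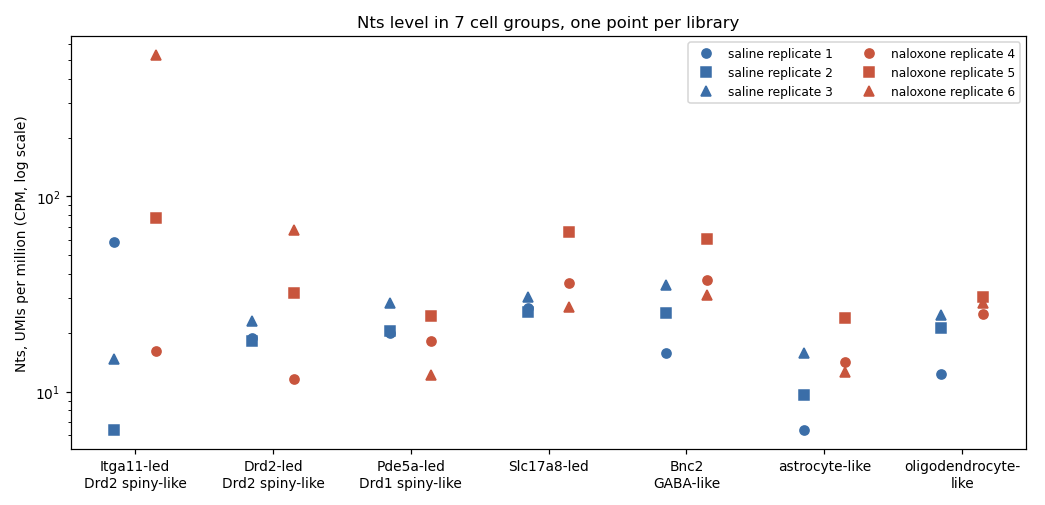
Nts level (vertical axis, CPM on a log scale) in 7 cell groups, 1 symbol per library, saline replicates 1 to 3 in blue and naloxone replicates 4 to 6 in red. Naloxone replicate 6 stands at 530.2 CPM in Itga11-led nuclei, far above the other 5 libraries, and is the lowest of the 6 in Pde5a-led Drd1 spiny-like nuclei at 12.2 CPM.

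Free RNA, molecules released from broken cells and caught with every nucleus, can give UMIs in nuclei that do not express a gene, and its part in these counts was not tested. Values that bear on it are given by 3 measures. The first is the count per nucleus in oligodendrocyte-like nuclei, which are not known to make these peptides. They held 4.35 Nts, 3.60 Cartpt, 2.65 Sst, 1.58 Npy, 0.415 Crh, 0.354 Trh, 0.199 Cck and 0.0691 Vip UMIs per 100 nuclei. Of the 25 groups other than the highest and the oligodendrocyte-like group itself, 22 were within a factor of 2 of that count for Sst, 19 for Cartpt, 18 for Npy, 17 for Crh, 15 for Nts and 14 for Trh. For Cck and Vip only 10 and 9 were, with few UMIs behind each. The others were all above that range for Nts (10 of 25) and Trh (11 of 25), and for Cck 11 were above it.

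The second measure is the level in oligodendrocyte-like nuclei over that in all nuclei of the library. It was 2.25 ± 0.61 for Sst, 1.61 ± 0.57 for Npy, 1.59 ± 0.98 for Crh, 1.54 ± 0.32 for Cartpt, 1.32 ± 0.52 for Trh, 1.29 ± 0.50 for Cck, 1.25 ± 0.28 for Nts and 1.04 ± 1.28 for Vip, so that none of the 8 was depleted there in CPM. Genes of spiny neurons measured in the same way ranged from 0.0696 for Rgs9 and 0.0701 for Drd2 to 1.92 for Penk, with a median of 0.975 over 9 genes. The values of the 8 peptides, 1.04 to 2.25, were above those of Drd2 and Rgs9, and that of Sst was above that of Penk, an opioid peptide gene. Barcodes removed as low in quality had 2.76 times (Trh) to 9.83 times (Vip) the level of all nuclei for the 8 genes, 6.17 times for Penk and 0.610 times for Drd2.

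The third is the share of nuclei with a UMI after nuclei were thinned to 1000 UMIs. Nuclei with fewer UMIs were left out, which took away 16.3% of oligodendrocyte-like and 35.3% of mural-like nuclei but 0% of Nos1 interneuron-like nuclei. In Nos1 interneuron-like nuclei 14.7% had Sst and 16.9% had Npy (54.6% and 51.6% before thinning, at a median of 6309 UMIs), against 1.56% and 0.871% of oligodendrocyte-like nuclei (2.58% and 1.62% before). Trh in Maf-led nuclei gave 3.34% against 0.169% (15.9% and 0.319% before). Cartpt gave 3.62% in Drd3 Adamtsl1-like nuclei, 2.27% in Drd2-led, 1.61% in Drd1 spiny-like and 2.16% in oligodendrocyte-like nuclei, and the Drd1 spiny-like share, lower than the oligodendrocyte-like one here, was 12.6% against 3.55% before thinning. Nts gave 1.54% in Drd1 and 2.43% in Drd2 spiny-like nuclei against 2.43% in oligodendrocyte-like nuclei.

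By count per nucleus and by thinned share, Sst and Npy in Nos1 interneuron-like nuclei, Trh in Maf-led nuclei, Crh in Plscr5-led nuclei (0.472% against 0.163% after thinning) and Cartpt in Drd3 Adamtsl1-like nuclei were above oligodendrocyte-like nuclei. Cartpt in Drd2-led Drd2 spiny-like nuclei was above them too, though by little in thinned share. Of the 23 nuclei with 5 or more Cartpt UMIs, 12 were Drd2-led, 6 were Ebf1-led Drd1 spiny-like and none was Drd3 Adamtsl1-like. After thinning, the Trh difference to the next group was 2.41 ± 3.38 UMIs per 100 nuclei in 5 of 6 libraries (exact permutation p = 0.15625). In Drd1 and Drd2 spiny-like nuclei Nts stood at 16.3 and 33.4 UMIs per 100 nuclei, above the oligodendrocyte-like 4.35, while its thinned shares were below and equal to the oligodendrocyte-like share. Thinning keeps a smaller part of the UMIs of a deep nucleus than of a shallow one, so the thinned shares alone do not set a deep group apart from, or equal to, a shallow one. Cck and Vip gave too few UMIs for this reading. Of all UMIs, 93.7% of Nts, 94.0% of Cartpt, 77.1% of Sst, 67.8% of Npy, 70.1% of Crh and 63.2% of Trh lay outside the group with the highest level.

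A few Nts-rich nuclei held a large share of the Nts counts of the spiny groups. Of 5200 Drd2 spiny-like nuclei, 51 held 5 or more Nts UMIs and together 1137 UMIs, or 65.4% of the class total. Naloxone replicate 6 alone gave 776 of these UMIs, and without it the share was 41.3% (361 of 874 UMIs), with 0% to 47.6% in each of the other 5 libraries. By library there were 3, 6 and 8 such nuclei with saline and 0, 12 and 22 with naloxone. Of 7645 Drd1 spiny-like nuclei, 34 held 5 or more, with 8, 6 and 8 under saline and 2, 7 and 3 under naloxone, and they held 28.2% of the class total. Without these nuclei the Drd2 spiny-like level fell to a narrow range, 13.7, 9.11 and 12.4 CPM with saline and 11.9, 18.4 and 11.4 CPM with naloxone.

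These Nts-rich nuclei were also rich in immediate early gene RNA, the transcripts that rise within minutes to hours of neuronal activity. This comparison, its list of 8 genes (Fos, Fosb, Fosl2, Arc, Npas4, Nr4a1, Nr4a3 and Egr1) and the minimum of 5 UMIs were chosen after the values were seen, so it is given without a test. In Drd2 spiny-like nuclei the 8 genes summed to 1471 CPM in nuclei with 5 or more Nts UMIs and to 41.8 CPM in the others, a ratio of 35.2, and the sum was higher in 5 of the 5 libraries that had such nuclei. At least 1 UMI of the list was present in 90.2% of the Nts-rich and 15.96% of the other nuclei. In Drd1 spiny-like nuclei the sums were 552 and 26.4 CPM, a ratio of 20.9, higher in 6 of 6 libraries. Depth differed less, with a median of 10076 UMIs in Nts-rich and 8345 in other Drd2 spiny-like nuclei. These levels, and those of single genes below, pool libraries and clusters. Of the 51 Nts-rich Drd2 nuclei, 22 came from naloxone replicate 6 and 14 were Itga11-led (415 of 5200 nuclei of the class). Of the 34 in the Drd1 class, 31 were Pde5a-led (4716 of 7645). The part of library and cluster in these levels was not tested.

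Nr4a3, which encodes an orphan nuclear receptor, gave the most UMIs of the list, at 610.5 CPM in Nts-rich and 14.7 CPM in other Drd2 spiny-like nuclei, and at 281 and 9.91 CPM in Drd1 spiny-like nuclei. Fosb, whose product joins Jun proteins in AP-1, stood at 183 against 1.99 CPM, Fosl2 at 185 against 5.81 and Fos at 59.0 against 1.82 CPM in Drd2 spiny-like nuclei. Npas4, a factor induced by calcium entry, stood at 69.9 against 2.83 CPM, and Arc, a synaptic protein gene, at 49.7 against 1.56 CPM. Every gene of the list was higher in Nts-rich nuclei of both classes when the libraries were pooled.

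Genes of peptide processing differed in both directions in these nuclei. Pcsk1, the convertase of the regulated pathway, stood at 374 CPM in Nts-rich and 17.8 CPM in other Drd2 spiny-like nuclei, higher in 5 of 5 libraries, and at 117 against 15.6 CPM in Drd1 spiny-like nuclei, higher in 4 of 6. Pam, the amidating enzyme, stood at 972 against 204 CPM and Cpe at 764 against 238 CPM in Drd2 spiny-like nuclei, both higher in 5 of 5 libraries. In Drd1 spiny-like nuclei Pam had 429 against 208 and Cpe 259.7 against 187 CPM, both higher in 6 of 6. Vgf, a granin-like precursor gene, had 60.6 against 10.0 CPM in the Drd2 and 32.5 against 7.54 CPM in the Drd1 class. Pcsk2, the second convertase, was lower in Nts-rich nuclei, at 663 against 895 CPM in the Drd2 class (lower in 5 of 5 libraries) and 496 against 800.0 CPM in the Drd1 class (lower in 6 of 6).

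**Figure D3:**
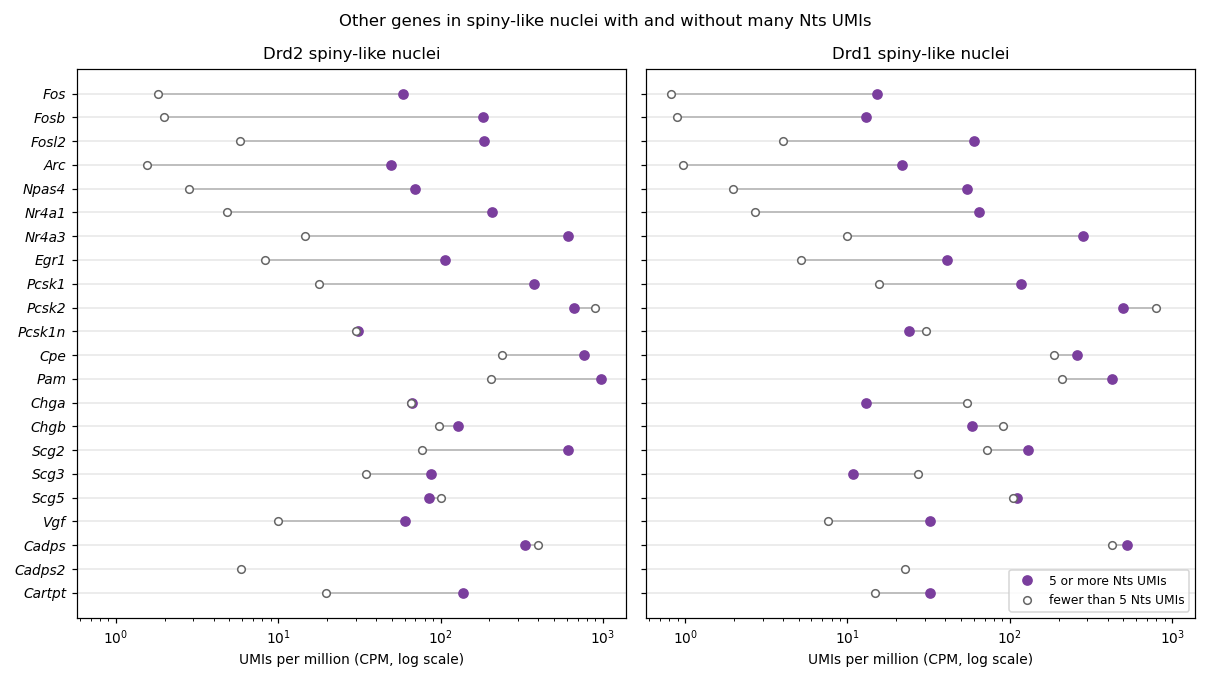
Level (horizontal axis, CPM on a log scale, libraries pooled) of 8 immediate early genes, 13 processing and granule genes and Cartpt in spiny-like nuclei with 5 or more Nts UMIs (filled) and with fewer (open), Drd2 class left and Drd1 class right. Cadps2 had 0 UMIs in the Nts-rich nuclei of both classes and so has no filled point, and the widest gaps belong to immediate early genes and Pcsk1.

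The same counts can be read from the other side, which is no independent support. Of the Drd2 spiny-like nuclei, 137 (2.63%) held 5 or more UMIs of the 8 immediate early genes, and 28.5% of them had 5 or more Nts UMIs against 0.237% of the rest. By library that share was 15.8%, 16.7% and 40% with saline and 0%, 22.2% and 61.3% with naloxone. In the Drd1 class 17.8% of 90 such nuclei were Nts-rich against 0.238% of the rest. By library the share was 29.4%, 35.7% and 5% with saline and 0%, 23.8% and 0% with naloxone. The 0% in naloxone replicates 4 and 6 stood for 0 of 8 and 0 of 10 nuclei, too few to set against the 0.211% and 0.324% of the rest. The Nts level of these 8 and 10 nuclei was 51.2 and 90.1 CPM, against 14.3 and 9.64 CPM in the rest. In Chst9 spiny-like nuclei there were 14 such nuclei, but no nucleus of that class, among them or the rest, was Nts-rich, so no comparison was possible there. Naloxone replicate 6 had the largest share of Drd2 spiny-like nuclei rich in immediate early genes, 5.42% against 1.85% to 2.69% in the other 5 libraries.

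Cartpt moved in part with the same nuclei. In Nts-rich Drd2 spiny-like nuclei Cartpt stood at 137 against 19.7 CPM, higher in 4 of 5 libraries, and in the Drd1 class at 32.5 against 14.9 CPM, higher in 3 of 6. Taking instead nuclei with 2 or more Cartpt UMIs, the immediate early sum was 8.03 times that of other Drd2 spiny-like nuclei (5 of 6 libraries) and 6.38 times in the Drd1 class (6 of 6). Without naloxone replicate 6 the Drd2 ratio was 2.91. Outside the spiny classes the same ratio for nuclei with 2 or more UMIs was 0.915 for Sst and 0.614 for Npy in Nos1 interneuron-like nuclei. It was 2.08 for Crh in Plscr5-led and 0.380 for Trh in Maf-led nuclei (higher in 0 of 6 libraries). For Nts it was 2.37 in Slc17a8-led (6 of 6) and 1.35 in Bnc2 GABA-like nuclei (3 of 6).

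Naloxone against saline was tested by edgeR's quasi-likelihood test on UMIs summed per library, with Benjamini-Hochberg adjustment over all genes of a fit and a threshold of 0.05. Over all nuclei 0 of the 8 genes were called, against a background of 0.0692% of genes (12 of 17339). At an unadjusted p under 0.05 there were 4 of 8, Nts, Cck, Crh and Trh, all with a higher mean under naloxone, in a fit with 14.4% of genes at that level (2496 of 17339). DESeq2 called 0 of the 8 but 375 genes in all, so the number of calls depended on the tool. A sum over all nuclei mixes the share of each cell type with its RNA per nucleus, and the part of each was not tested. Plscr5-led nuclei, highest in Crh, numbered 111, 180 and 172 with saline and 233, 167 and 200 with naloxone. Bnc2 GABA-like nuclei, next in Crh, numbered 147, 254 and 196 with saline and 296, 248 and 210 with naloxone. These libraries held 7647, 13676 and 8948 nuclei with saline and 10260, 10486 and 7943 with naloxone.

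Crh over all nuclei stood at 1.10, 0.536 and 0.907 CPM with saline and 1.39, 1.57 and 2.12 CPM with naloxone, with a log2 change of 1.01 ± 0.29 (SE) and an edgeR adjusted p of 0.203. Cck stood at 0.628, 0.492 and 0.676 CPM with saline and 1.01, 1.33 and 0.846 CPM with naloxone (log2 change 0.81 ± 0.23, edgeR adjusted p = 0.204). Trh stood at 1.01, 1.19 and 1.17 CPM with saline and 1.73, 1.78 and 1.39 CPM with naloxone (log2 change 0.52 ± 0.16, edgeR adjusted p = 0.24). None of these 3 genes passed the adjusted threshold. Nts stood at 14.1, 13.6 and 18.7 CPM with saline and 16.3, 24.9 and 28.6 CPM with naloxone, with overlap between the groups (log2 change 0.59 ± 0.21, edgeR adjusted p = 0.28). The log2 changes of Cartpt, Sst and Npy were 0.05, 0.03 and 0.06, all within 1 standard error of 0, and that of Vip was 0.84 ± 0.73.

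**Figure D4:**
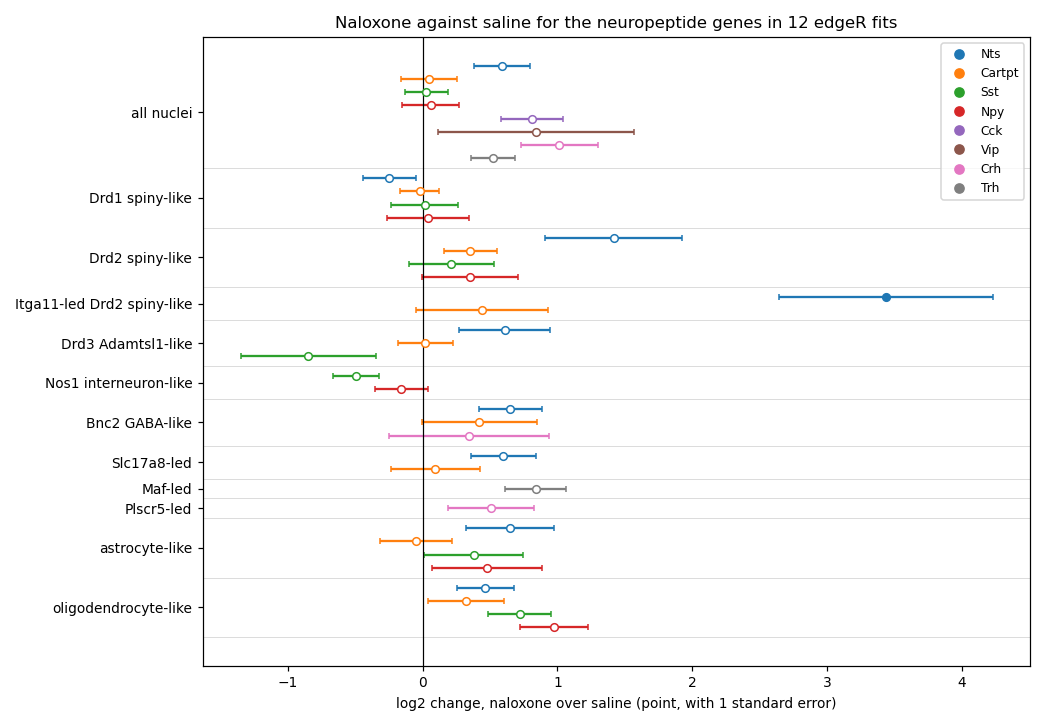
Log2 change, naloxone over saline, of the neuropeptide genes (colours) tested in each of 12 edgeR fits (rows), as a point with a bar of 1 standard error on either side. The single filled point passes the adjusted threshold: Nts in Itga11-led Drd2 spiny-like nuclei, at 3.43.

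Nts was the single member called in any of the 12 fits, and only in Itga11-led Drd2 spiny-like nuclei, where 2.29% of genes were called (154 of 6730). This was the only cluster of a spiny class fitted on its own. It also had the highest Nts mean, which rested on naloxone replicate 6, so the test was not independent of that ranking. Nts stood at 58.7, 6.38 and 14.6 CPM with saline and 16.2, 77.5 and 530.2 CPM with naloxone, so the groups overlapped and 1 naloxone library was far above the rest. The log2 change was 3.43 ± 0.79 (SE) with an edgeR adjusted p of 0.0239. In naloxone replicate 6, 366 of 374 Nts UMIs came from 11 of 61 nuclei, with 134 in the richest. Without that library the log2 change was 1.16 and the adjusted p 0.422, and the call was also lost without saline replicate 2 (adjusted p = 0.203) or 3 (adjusted p = 0.181), with DESeq2 (log2 change 3.07, adjusted p = 0.31) and with adjustment over all class fits together (adjusted p = 0.0762). Without the nuclei of 5 or more Nts UMIs the group stood at 9.57, 6.38 and 14.6 CPM with saline and 16.2, 28.3 and 13.2 CPM with naloxone.

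In the whole Drd2 spiny-like class, where 0.646% of genes were called, Nts stood at 21.3, 17.3 and 22.3 CPM with saline and 11.9, 34.6 and 108 CPM with naloxone (log2 change 1.42 ± 0.51, edgeR adjusted p = 0.243). Without naloxone replicate 6 the change was 0.24, and without naloxone replicate 4 it was 1.85 (adjusted p = 0.737 and 0.0325). In the Drd1 class, with 0.185% of genes called, it stood at 15.8, 14.99 and 22.2 CPM with saline and 14.6, 20.03 and 10.5 CPM with naloxone (log2 change -0.25 ± 0.20, adjusted p = 0.636). The direction was the opposite with the marker gate (0.34) and at resolution 0.5 (0.55), where the class held 2309 Ebf1-led nuclei only. The difference between the classes was tested on the log2 ratio of the Drd2 to the Drd1 level in each library, which was 0.43, 0.21 and 0.01 with saline and -0.29, 0.79 and 3.37 with naloxone. The means differed by 1.08, with an exact two-sided permutation p of 0.5, where 3 libraries against 3 cannot go below 0.1. So a difference between the classes in the response of Nts was not shown.

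In their own groups the other peptides were not called either. Sst in Nos1 interneuron-like nuclei was lower in each naloxone library (111, 121 and 142 CPM) than in any saline library (149, 161 and 226 CPM), with a log2 change of -0.50 ± 0.17 and an edgeR adjusted p of 0.691, in a fit that called 0.0134% of genes. Npy in the same nuclei overlapped between groups (log2 change -0.16, adjusted p = 0.946). Trh in Maf-led nuclei was higher in each naloxone library, with a log2 change of 0.84 ± 0.23 and an edgeR adjusted p of 0.286 (0.0228% of genes called). The share of all genes whose groups lay apart like those of Sst and Trh was not computed. Both had an unadjusted edgeR p under 0.05, as had 6.30% of genes in Nos1 interneuron-like and 7.86% in Maf-led nuclei. Crh in Plscr5-led nuclei had a log2 change of 0.51 ± 0.32 and an adjusted p of 0.771 (0.0402% of genes called).

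In oligodendrocyte-like nuclei, where 0.845% of genes were called, Npy stood at 5.75, 5.35 and 6.61 CPM with saline and 9.29, 13.9 and 12.9 CPM with naloxone (log2 change 0.97 ± 0.25, edgeR adjusted p = 0.119). Sst stood at 11.5, 10.1 and 11.2 CPM with saline and 23.6, 13.9 and 15.4 CPM with naloxone (log2 change 0.72 ± 0.23, adjusted p = 0.241), and Nts had a log2 change of 0.47 (adjusted p = 0.423). None of these 3 genes passed the threshold. All 13 of 13 processing genes had a positive log2 change there as well, with a median of 0.46 against 0.00 over all genes tested. The part of free RNA in these values was not tested. In the remaining fits, on Drd3 Adamtsl1-like (0% of genes called), Bnc2 GABA-like (0.181%), Slc17a8-led (0.057%) and astrocyte-like nuclei (0.886%), 0 of the 3, 3, 2 and 4 members tested were called. At an unadjusted p under 0.05 these fits held 0, 1, 1 and 0 members, Nts in both cases, and DESeq2 called 0 members in any of the 12. The fit on Drd3 Adamtsl1-like nuclei had 638 genes at an unadjusted p under 0.05 and 1 DESeq2 call.

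In Drd2 spiny-like nuclei 2 of the 13 processing genes passed the test, in a fit that called 0.646% of genes (81 of 12535). There 12 of the 13 had a positive log2 change, with a median of 0.24 against 0.00 over all genes. Chga, a granin of dense-core vesicles, rose from 51.2, 49.2 and 49.6 CPM with saline to 74.8, 94.8 and 82.5 CPM with naloxone (log2 change 0.77 ± 0.09, edgeR adjusted p = 0.00142), and the call held without any 1 library. Chga was also the processing gene of lowest p in 3 fits that did not call it. Its log2 changes there were 0.65 in oligodendrocyte-like nuclei, 0.35 in the Drd1 class and 0.39 over all nuclei (edgeR adjusted p = 0.11, 0.112 and 0.111). Whether its change differed between groups was not tested. Cpe, the carboxypeptidase of peptide maturation, rose from 205, 214 and 195 CPM to 262, 294 and 316 CPM (log2 change 0.53 ± 0.09, adjusted p = 0.0179), and this call was lost without saline replicate 1, 2 or 3, with adjusted p of 0.0851, 0.0667 and 0.109. In the Itga11-led part, where 2.29% of genes were called, Cpe (log2 change 0.83 ± 0.14, adjusted p = 0.00221) and Pam (0.74 ± 0.15, adjusted p = 0.00849) rose. Leaving out naloxone replicate 6, or saline replicate 2 or 3, ended the call of Pam, with adjusted p of 0.0566, 0.0773 and 0.0662. In Bnc2 GABA-like nuclei (0.181% of genes called) Pam rose from 206, 188 and 176 CPM to 273, 279 and 249.9 CPM (log2 change 0.50, adjusted p = 0.0297), a call that held without naloxone replicate 5 but was lost without any other library, with adjusted p of 0.0703 to 0.323, and with the marker gate (0.74). In the Drd1 class, the other interneuron-like and unnamed groups and both glial groups 0 of the 12 or 13 tested passed, with 1 to 8 of them at an unadjusted p under 0.05 and with DESeq2 calling Chga and Pcsk1n in oligodendrocyte-like nuclei. Of all genes in these fits, 6.30% (Nos1 interneuron-like) to 13.1% (Drd1) were at that unadjusted level.

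Of 22 receptor and binding protein genes listed for these peptides, 20 were matched in the files and 0 passed the test in any of the 12 fits. Of 98 tests, 15 had an unadjusted p under 0.05, and DESeq2 made 1 call, Sort1 in oligodendrocyte-like nuclei. That is 15.3% of tests, against 6.30% to 14.4% of all genes by fit. Ntsr2, a neurotensin receptor, was highest in astrocyte-like nuclei at 156 ± 13 CPM, with ependymal-like nuclei next at 21.8 CPM, and Sort1, the sorting receptor that also binds neurotensin, was highest in oligodendrocyte-like nuclei at 563 ± 110 CPM. Trhr, the thyrotropin-releasing hormone receptor, had its top level of 84.2 ± 30 CPM in cholinergic interneuron-like nuclei and came next in Bnc2 GABA-like nuclei at 44.3 ± 7.1 CPM. Crhr1, a receptor of corticotropin-releasing hormone, also peaked there, at 67.1 ± 11 CPM, with Itga11-led Drd2 spiny-like nuclei at 52.2 and oligodendrocyte precursor-like nuclei at 51.0 CPM within its spread. Crhbp, which binds that hormone, was highest in Maf-led nuclei at 33.5 ± 3.7 CPM. Npy1r and Npy5r were both highest in Drd3 Adamtsl1-like nuclei, at 14.0 ± 2.9 and 16.7 ± 5.6 CPM. Vipr2 was highest in the Tafa4-led group at 30.2 ± 6.4 CPM, and Cckbr in Ebf1-led Drd1 spiny-like nuclei at 19.0 ± 2.7 CPM, where other spiny groups were within its spread.

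Except for Cartpt, the genes with the pattern most like each member are given, ranked by Pearson's r of log2(CPM + 1) over 44 clusters, among 14285 genes. The clusters share the same 6 libraries and differ in depth, so r is a description. Sst and Npy were each other's nearest gene (r = 0.77). Trh was followed by Gna14 (0.69), Adamts15 (0.67) and Pthlh (0.67), and Pthlh is known from a striatal interneuron class. For Nts the nearest was Akt1s1 (0.66), for Crh Eif2s2 (0.64), for Cck Thoc7 (0.72) and for Vip LOC100365839 (0.61).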

How the data were processed

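UMI counts per gene and barcode of 6 libraries were used as deposited by the authors, with no normalization. Per the submitters' processing notes they used Cell Ranger 9.0.1, Seurat 5.2.1 and R 4.4.0 with mRatBN7.2; whether intron reads were counted is not given in the sources used here. The labels speak of a smaller number of nuclei than the barcodes in the files, and the authors' selection was not used. No value column was left unmapped to a sample (0 columns).

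A minimum of 500 genes and a limit of 5% mitochondrial UMIs left 61609 nuclei. Doublets scored against simulated pairs, at a rate of 0.4% per 1000 nuclei, were removed (2649, 4.30%). Clustering (Python 3.11.15, leidenalg 0.10.2, scikit-learn 1.9.0) used 3000 variable genes, 40 principal components, 15 neighbours and resolution 1.0, without the members, their processing and receptor genes, mitochondrial and sex-linked genes. Clusters were named from marker lists. Of 48, 8 were mixed, 7 had under 100 nuclei and 4 unnamed ones were shallow, and these were not ranked. Mural-like nuclei, with a median of 1191 UMIs, were named and so stayed in the ranking. It held 27 groups of 51188 nuclei. These groups are rebuilt and may differ from the authors' own.

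Counts were summed per library and group and tested with edgeR 4.0.16 in R 4.3.3 (TMM, filterByExpr, no covariate), with DESeq2 1.42.0 as an alternative. The 12 fits were a selection of groups with at least 20 nuclei in each library. Other groups of that size, among them the Drd2-led, Pde5a-led, Ebf1-led and Chst9 spiny-like ones, were not fitted on their own. Scripts were tested on simulated data. Level comparisons between groups used exact sign-flip permutation over 6 libraries, with the highest and next group picked from the same libraries. Shares of nuclei were also computed after thinning to 1000 UMIs, without the nuclei below that depth. All members were named in each group. Of the lists, genes past an adjusted p of 0.05 were named, and receptors by level. For likeness the 3 nearest genes were taken among those reaching 10 CPM in a cluster of at least 50 nuclei, and the text prints up to 3 of them; those of Cartpt are not reported here. Members and lists were chosen with earlier results of these data known. Intervals and floors cover counting error only. Libraries of 55739350 to 76272798 UMIs give no stable value for genes of under 1 CPM. Alternatives were another tool, filters, clustering resolution, a marker gate on single nuclei, adjustment over all class fits together, thinning, and leaving out each library.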

Additional observations from a re-analysis of the deposited data

Results flagged for a closer look

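In 24 sets of 6 library values, each member over all nuclei and in its 2 highest groups, the gap between the most extreme library and its nearest neighbour was compared with Dixon's 95% critical value of 0.625 of the whole range. Chance alone marks about 1 in 20 such sets. Of the 24 sets, 5 had a value that was set apart by this rule. Nts in Itga11-led Drd2 spiny-like nuclei was 530.2 CPM in naloxone replicate 6, with the nearest library at 77.5 CPM. Nts in Slc17a8-led nuclei was 65.9 CPM in naloxone replicate 5, with the nearest at 35.9 CPM. Cartpt over all nuclei was 19.0 CPM in naloxone replicate 5, with the nearest at 13.3 CPM. Vip in Maf-led nuclei was 17.8 CPM in naloxone replicate 6, from 1 nucleus for the most part, with the nearest at 0.928 CPM. Vip in Gbx1-led nuclei was 9.17 CPM in saline replicate 3, with the nearest at 2.76 CPM.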

How the results depend on the processing

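No paired analysis was possible because the saline libraries are numbered 1 to 3 and the naloxone libraries 4 to 6, so no number is shared.

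The number of genes called moved most. Over all nuclei (12 as reported) it was 0 with at least 1000 genes per nucleus, 375 with DESeq2 and 45 with no filter on low counts. In the Drd1 class (25) it was 94 with DESeq2, 11 at resolution 0.5, 4 with the marker gate and 316 with no filter. In the Drd2 class (81) it was 167 with DESeq2, 30 with the gate and 488 with no filter. In Itga11-led nuclei (154) it was 73 adjusted over all class fits together and 250 with no filter. In Drd3 Adamtsl1-like nuclei (0) these gave 3 and 46, and DESeq2 1. In Nos1 interneuron-like nuclei (1) joint adjustment gave 7, DESeq2 0, resolution 0.5 2, the gate 19 and no filter 19. In Bnc2 GABA-like nuclei (19) DESeq2 gave 11, resolution 0.5 10, the gate 8 and no filter 68. In Slc17a8-led nuclei (6) joint adjustment gave 13, resolution 0.5 12 and no filter 67. In Maf-led nuclei (2) joint adjustment gave 6 and no filter 50. In Plscr5-led nuclei (4) joint adjustment gave 10, DESeq2 2 and no filter 26. In astrocyte-like nuclei (98) joint adjustment gave 49, the gate 49 and no filter 318. In oligodendrocyte-like nuclei (96) DESeq2 gave 164, the gate 41 and no filter 386.

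With 1 library left out the counts were 0 to 264 over all nuclei, 0 to 49 in the Drd1 and 17 to 130 in the Drd2 class, 51 to 185 in Itga11-led, 0 to 7 in Drd3 Adamtsl1-like, 0 to 6 in Nos1 interneuron-like, 0 to 51 in Bnc2 GABA-like, 2 to 6 in Slc17a8-led, 0 to 13 in Maf-led, 0 to 9 in Plscr5-led, 21 to 122 in astrocyte-like and 32 to 114 in oligodendrocyte-like nuclei. The log2 changes that turned sign ran from -0.26 to 0.22 for Cartpt, -0.0925 to 0.17 for Sst and -0.12 to 0.30 for Npy over all nuclei, and for Cartpt from -0.17 to 0.0833 in the Drd1 class, -0.11 to 0.20 in Drd3 Adamtsl1-like, -0.26 to 0.14 in astrocyte-like and -0.0426 to 0.62 in oligodendrocyte-like nuclei. Npy in Nos1 interneuron-like nuclei ran from -0.42 to 0.16 and Crh in Bnc2 GABA-like nuclei from -0.34 to 1.07. The difference between the highest and the next group ran from -2.26 to 102.3 CPM for Nts, -0.11 to 1.62 for Cck and -2.34 to 2.79 for Vip.

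Other turns of sign were Sst at -0.0287 and Npy at -0.00305 over all nuclei, and Cartpt at -0.0767 in Drd3 Adamtsl1-like and -0.0337 in oligodendrocyte-like nuclei, all with at least 1000 genes per nucleus, Nts in the Drd1 class at 0.55 (resolution 0.5) and 0.34 (marker gate), and the Vip difference at -0.621 CPM without the top 1% of nuclei. Nts in Itga11-led nuclei had an adjusted p of 0.0762 over all class fits together. Nts in the Drd2 class passed the threshold without naloxone replicate 4 (log2 change 1.85, edgeR adjusted p = 0.0325) and with no filter (1.41, 3.2e-30), and Npy in oligodendrocyte-like nuclei with no filter (0.97, 0.0279).

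The level over that of all nuclei, read in astrocyte-like in place of oligodendrocyte-like nuclei, was 0.71 for Nts, 1.15 for Cartpt, 1.34 for Sst and 0.676 for Cck. Read in Inpp5d-led nuclei with microglial markers it was 1.78, 1.95, 3.03 and 1.87 for these, 3.62 for Crh and 2.14 for Trh. The immediate early ratio for Nts-rich Drd1 nuclei was 36.5 at double the minimum and 0 at resolution 0.5, from 1 nucleus. With 1 library left out it was 15.1 to 29.5, and 25.5 to 38.9 in the Drd2 class. For Cartpt it was 18.1 (double minimum) and 11.2 (gate) in the Drd1 class and 29.9 (double minimum) and 2.91 to 10.0 (1 library left out) in the Drd2 class. The cause of these changes was not tested.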

Other observations

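A cluster of shallow nuclei led by Chchd10, which, like a Tnc-led cluster of 105 nuclei with 10.7 CPM of Cck from 1 UMI, was left out of the ranking, had 65.6 CPM of Cartpt, 57.8 ± 37.5 of Sst, 48.9 of Nts, 21.4 of Npy and 5.81 ± 3.99 of Cck. For Cartpt and Cck this was above every ranked group, and for Sst, Nts and Npy above every ranked group but the highest. Inpp5d-led nuclei, also left out, had 25.4 CPM of Cartpt. The Chchd10-led cluster held 6 of the 32 nuclei with 5 or more Sst UMIs, among them the richest of all, with 45 Sst UMIs. These values belong to no comparison of the text.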
